A study of Mus musculus with 12 samples.

Results

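A group of 9 genes on mouse chromosome 11 was examined: Mapt, Med1, Msl1, Stac2, Mbtd1, Utp18, Snf8, Mpp3 and the long noncoding RNA C130046K22Rik. They were chosen from measured values. Each lies within 10 Mb of Ngfr, the gene of the p75 neurotrophin receptor, and each differed in the same direction by receptor label in mice without and with the 5xFAD transgenes. They are 9 of 24421 genes in the table, and all 9 were among the 13065 genes that passed the filter on low counts. Within the same 10 Mb, 234 genes other than Ngfr were tested, and the 9 are those with an unadjusted p under 0.05 and the same sign in both receptor comparisons. Over all tested genes 51 met that rule, which is 0.39% (38 lower, 0.291%, and 13 higher, 0.0995%).

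The libraries were made from hippocampus of mice 2 months of age, all given BrdU, which is built into DNA as cells divide. The labels give all 12 libraries the same batch. There were 3 libraries of each genotype: WT, 5xFAD, p75NTRko, and 5xFAD/p75NTRko, which carries both. The 5xFAD transgenes are driven in neurons by the Thy1 promoter. The name p75NTRko stands for loss of the receptor that Ngfr encodes. The labels do not say which part of Ngfr was targeted, in which strain, or how litters were arranged, and they call the libraries biological replicates without naming animals, so p-values measure the spread between these libraries. Reads came from the 3′ ends of transcripts, and levels are given as CPM, the counts of a gene scaled to the gene-assigned counts of its library. The question of the series was how the receptor acts on the birth of neurons in the adult hippocampus of this Alzheimer's model.

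The products of the 9 genes belong to separate machinery. Mapt encodes tau, a microtubule-binding protein of axons that aggregates in Alzheimer's disease. Med1 encodes a subunit of Mediator, which links transcription factors to RNA polymerase II. Msl1 and Mbtd1 encode subunits of separate histone acetyltransferase complexes, MSL and TIP60. Utp18 encodes a protein of the small subunit processome, which matures ribosomal RNA. Snf8 encodes a subunit of ESCRT-II, which sorts ubiquitinated membrane proteins into endosomal vesicles. Stac2 encodes an adaptor of L-type calcium channels, and Mpp3 a membrane-associated guanylate kinase (MAGUK) scaffold of cell junctions.

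Libraries held 4316739 to 6683613 gene-assigned counts, so that 3 counts, taken as the limit of measurement, corresponded to 0.446 to 0.690 CPM. That limit covers counting error only. All 10 hippocampal neuron markers (such as Prox1 and Wfs1) were detected, with a summed level of 782 to 1324 CPM over the libraries. Xist was at 360 to 439 CPM in WT, 5xFAD/p75NTRko and p75NTRko replicate 1, and at 1.53 to 3.58 CPM in 5xFAD and p75NTRko replicates 2 and 3. Xist class and genotype thus cannot be told apart in 5xFAD/p75NTRko against 5xFAD, nor in 5xFAD against WT. Thy1 was at 1597 to 4019 CPM in the 6 transgene carriers and at 688 to 940 CPM in the other 6 libraries. Ttr, a choroid plexus gene, ranged from 49.5 to 6123 CPM.

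The targeted gene, Ngfr, had more counts in the p75NTRko and 5xFAD/p75NTRko libraries than in the others. Its level was 0.897, 1.95 and 0.166 CPM for WT replicates 1, 2 and 3, and 1.70, 0.751 and 0.841 CPM for 5xFAD. It was 7.79, 7.36 and 5.95 CPM in p75NTRko and 6.33, 10.5 and 10.5 CPM in 5xFAD/p75NTRko. All 6 receptor-labelled libraries were therefore above all 6 others, at 1 to 64 counts per library. A read from the 3′ end does not register a deletion elsewhere in a gene, so with the targeted part not given these counts do not check the label, and the direction of every difference below rests on the labels as given. Markers of basal forebrain cholinergic neurons, which express Ngfr, summed to 0.666 to 4.43 CPM over the libraries (6 markers in the table, 1 of them, Gbx1, at 0 in every library) and did not separate the receptor-labelled libraries from the others.

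The 9 genes differed in both directions: 5 were lower with the receptor label (Mapt, Mbtd1, Msl1, Stac2 and C130046K22Rik) and 4 were higher (Med1, Utp18, Snf8 and Mpp3). For each of the 9, all 6 receptor-labelled libraries lay on one side of all 6 other libraries. Since the rule used these contrasts, this is a description and was not tested. Over all tested genes, 0.321% had such a separation of all 12 libraries, and 0.857% were separated in the same direction in both receptor comparisons taken apart.

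**Figure D1:**
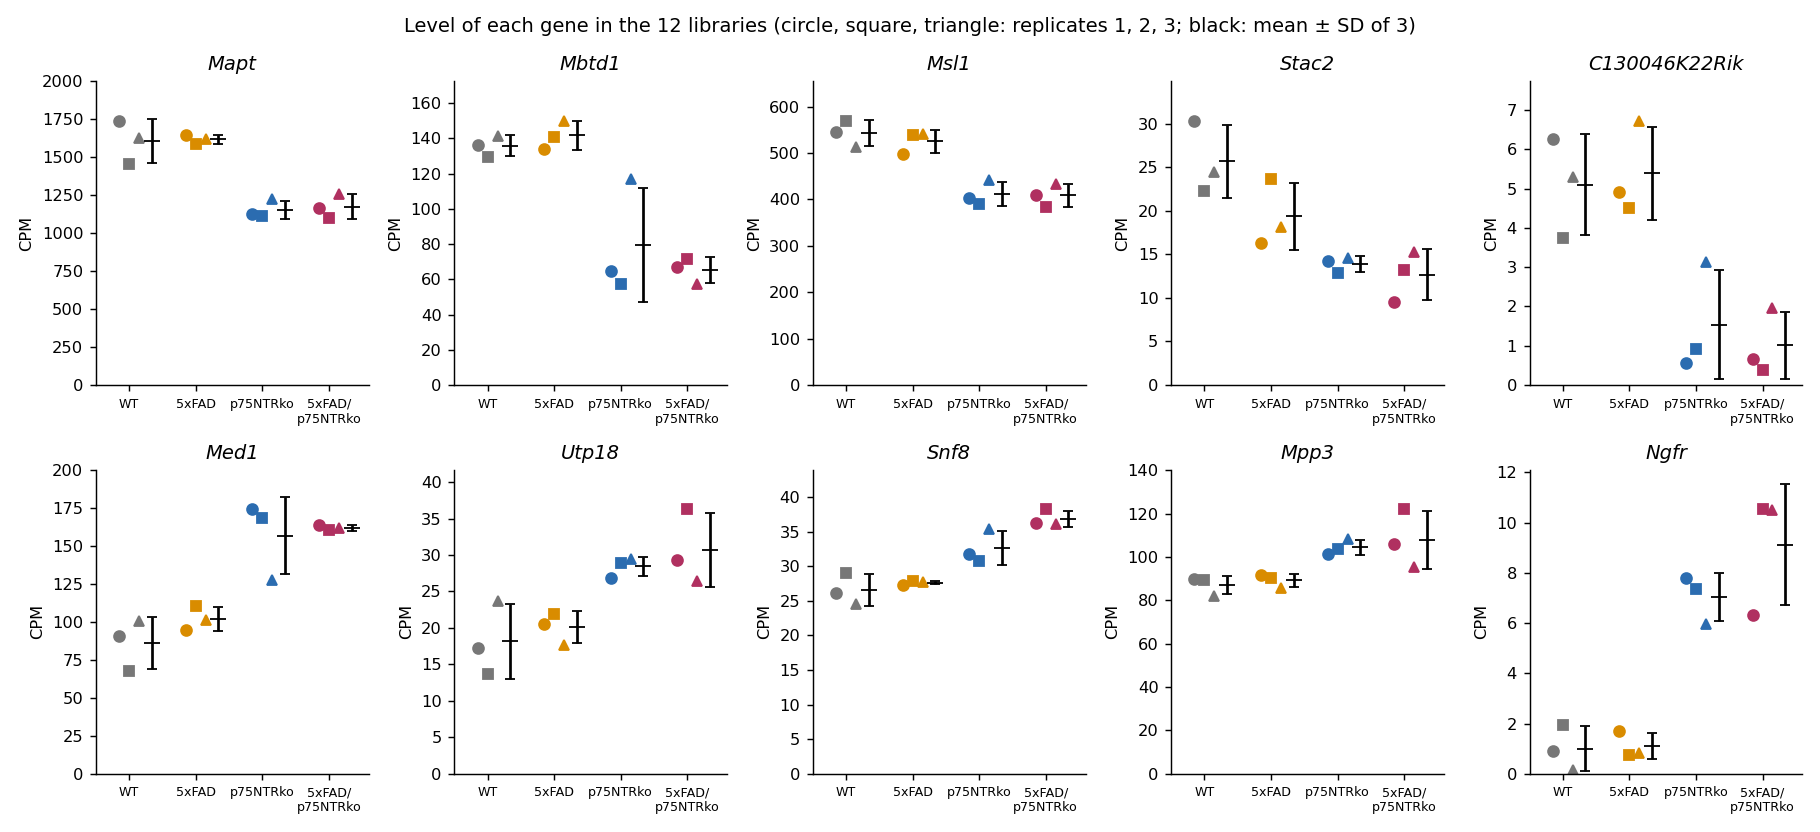
Levels in CPM (linear axes from 0) of the 9 genes and Ngfr in the 12 libraries, by genotype, with the mean ± SD of 3 libraries in black. Mapt, Mbtd1, Msl1, Stac2 and C130046K22Rik are lower and the other genes higher in both receptor-labelled genotypes, with no overlap, and p75NTRko replicate 3 (blue triangle) stands at 117 CPM for Mbtd1 beside 64.5 and 57.5 CPM in its genotype.

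Mapt, the gene of tau, was lower in both receptor-labelled genotypes. It had 1741, 1456 and 1625 CPM in WT replicates 1, 2 and 3 and 1644, 1588 and 1623 CPM in 5xFAD. It had 1125, 1115 and 1222 CPM in p75NTRko and 1163, 1097 and 1261 CPM in 5xFAD/p75NTRko. The highest receptor-labelled library, at 1261 CPM, thus lay below the lowest of the others, at 1456 CPM. The log2 fold change was -0.48 (SE 0.0903) in p75NTRko against WT and -0.46 (SE 0.0903) in 5xFAD/p75NTRko against 5xFAD, a level lower by 28.2% and 27.5%. The second minus the first was 0.014 (SE 0.127). Mapt lies at chr11:104229409-104332090 on the plus strand (GRCm38), 8.64 Mb from Ngfr, the farthest of the 9.

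Msl1, the scaffold of the MSL complex, was lower by 24.1% and 22.2% in the same comparisons (log2 fold changes -0.40, SE 0.0860, and -0.36, SE 0.0860). Its levels were 497 to 569 CPM in the 6 libraries without the receptor label and 383 to 441 CPM in the 6 with it. GENCODE M21 places 2955 bases of Casc3 over Msl1 on the same strand, whereas RefSeq positions leave 1.95 kb between them. The annotation used in counting is not given, so how reads of that stretch were assigned is not known. Stac2, the calcium channel adaptor, was at 16.3 to 30.3 CPM without the label and at 9.49 to 15.2 CPM with it. Its log2 fold changes were -0.88 (SE 0.192) and -0.61 (SE 0.198). The gap between the closest libraries of the 2 sides was small for Stac2, 15.2 against 16.3 CPM.

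C130046K22Rik, a long noncoding RNA whose role is not described here, had the largest fold differences and the fewest counts of the 9. WT replicates 1, 2 and 3 had 42, 23 and 32 counts and those of 5xFAD 29, 24 and 32. The p75NTRko replicates had 3, 4 and 21 counts, and the 5xFAD/p75NTRko replicates 4, 2 and 12. In CPM these were 3.73 to 6.73 without the receptor label and 0.390 to 3.12 with it. Replicate 3 of each receptor-labelled genotype stood above the other 4 libraries, 2 of which were at or under 3 counts. The log2 fold changes were -1.63 (SE 0.515) and -2.35 (SE 0.555), and -2.79 and -3.27 when replicate 3 of the labelled genotype was left out. With Xist class as a term they were -3.15 (SE 0.897) and -0.43 (SE 1.32), the latter smaller than its SE. In GENCODE M21 the gene overlaps 175 bases of Gosr2 on the other strand, whereas by RefSeq positions the 2 genes abut without overlap. The annotation and the use of strand in counting are not given in the sources used here.

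Mbtd1 and Utp18 are direct neighbours that run apart from a common region: Utp18 ends its coordinates at 93885766 on the minus strand, and Mbtd1 starts at 93885850 on the plus strand, 84 bases away. They differed in opposite directions. Mbtd1 had 136, 129.5 and 142 CPM in WT replicates 1, 2 and 3 and 134, 141 and 149.99 CPM in 5xFAD. In p75NTRko it had 64.5, 57.5 and 117 CPM, and in 5xFAD/p75NTRko 66.9, 71.7 and 57.1 CPM. Thus 5 of the 6 receptor-labelled libraries lay between 57.1 and 71.7 CPM, and p75NTRko replicate 3 lay much closer to the libraries without the label. The log2 fold change of Mbtd1 was -0.76 (SE 0.193) in p75NTRko against WT, and -1.15 (SE 0.121) without p75NTRko replicate 3. In 5xFAD/p75NTRko against 5xFAD it was -1.12 (SE 0.196), and -0.67 (SE 0.338) with Xist class as a term.

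Utp18 had 17.2, 13.6 and 23.7 CPM in WT and 20.5, 21.97 and 17.7 CPM in 5xFAD. It had 26.9, 29.0 and 29.4 CPM in p75NTRko and 29.3, 36.3 and 26.4 CPM in 5xFAD/p75NTRko. Here p75NTRko replicate 3 was the highest of its genotype, on the side of the other labelled libraries. The log2 fold changes were 0.65 (SE 0.184) and 0.61 (SE 0.183). The ratio of Mbtd1 to Utp18 CPM was 5.97 to 9.5 in the libraries without the receptor label and 1.98 to 3.96 in those with it, the highest of the latter being p75NTRko replicate 3.

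The region between both genes is shown because it lies at the starts of a gene that was lower and of a gene that was higher. The window runs from 250 bases before to 50 bases after the annotated start of Mbtd1 (chr11:93885600-93885899, plus strand, RefSeq on GRCm38.p6). Capitals mark the 183 bases that also belong to the window of the same size at Utp18 (chr11:93885717-93886016, minus strand).
Mbtd1: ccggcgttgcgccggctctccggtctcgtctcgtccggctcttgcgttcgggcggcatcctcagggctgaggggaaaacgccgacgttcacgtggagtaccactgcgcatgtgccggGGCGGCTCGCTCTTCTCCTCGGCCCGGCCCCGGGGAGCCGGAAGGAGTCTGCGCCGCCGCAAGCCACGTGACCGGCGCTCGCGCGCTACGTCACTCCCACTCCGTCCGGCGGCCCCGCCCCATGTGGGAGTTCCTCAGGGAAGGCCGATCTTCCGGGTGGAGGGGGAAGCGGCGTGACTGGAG

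Windows were found for 5 of the 9 genes, and those of the other 4 are shown with GGGCGG in capitals (found on either strand, so also as CCGCCC), since lower and higher genes are both among them. Med1 is at chr11:98192857-98193156 (minus), Msl1 at chr11:98795266-98795565 (plus), Utp18 as given above and C130046K22Rik at chr11:103697474-103697773 (plus).
Med1: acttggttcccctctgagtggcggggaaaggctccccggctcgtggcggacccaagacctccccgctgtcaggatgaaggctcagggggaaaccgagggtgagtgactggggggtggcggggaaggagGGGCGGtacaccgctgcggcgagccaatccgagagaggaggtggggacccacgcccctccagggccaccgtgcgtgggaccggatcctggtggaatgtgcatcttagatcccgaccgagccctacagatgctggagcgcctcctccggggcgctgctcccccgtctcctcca
Msl1: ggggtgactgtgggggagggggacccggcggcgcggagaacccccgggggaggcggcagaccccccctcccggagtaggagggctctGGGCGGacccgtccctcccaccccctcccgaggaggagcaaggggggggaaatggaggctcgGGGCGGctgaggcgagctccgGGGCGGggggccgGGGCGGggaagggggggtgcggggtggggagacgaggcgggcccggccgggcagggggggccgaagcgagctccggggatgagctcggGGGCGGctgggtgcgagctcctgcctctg
Utp18: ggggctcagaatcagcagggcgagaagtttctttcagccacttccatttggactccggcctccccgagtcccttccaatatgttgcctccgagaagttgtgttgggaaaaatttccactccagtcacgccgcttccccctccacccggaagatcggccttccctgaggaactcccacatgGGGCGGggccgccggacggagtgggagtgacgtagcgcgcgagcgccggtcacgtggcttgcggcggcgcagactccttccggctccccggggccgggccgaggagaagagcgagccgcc
C130046K22Rik: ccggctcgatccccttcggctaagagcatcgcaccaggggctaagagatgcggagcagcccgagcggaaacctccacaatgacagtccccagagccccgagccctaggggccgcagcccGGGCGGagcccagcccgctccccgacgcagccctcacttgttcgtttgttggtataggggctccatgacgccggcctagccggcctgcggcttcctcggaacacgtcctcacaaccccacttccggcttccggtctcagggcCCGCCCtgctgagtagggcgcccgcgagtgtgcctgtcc

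GGGCGG occurred in all 5 of these windows, each the RefSeq window of lowest coordinate for its gene. It occurred 1 time at Med1 and at Utp18, 2 times at C130046K22Rik, 3 times at Mbtd1 and 5 times at Msl1. It was present in 64.9% of 9979 windows of tested genes, each the first listed for its gene. These 5 windows held 22 to 41 CG dinucleotides, against a median of 21. Further windows of Msl1, at chr11:98798404-98798703, and of Mbtd1 held GGGCGG 0 times, with 6 and 25 CG dinucleotides. TATAAA (or TTTATA) occurred in none of the 5, and in 6.96% of the 9979. CCAAT (or ATTGG) occurred 1 time each at Med1 and Utp18, both higher, and not in the windows shown for Mbtd1, Msl1 and C130046K22Rik, all lower. The further window of Mbtd1, at chr11:93885921-93886220, held it 2 times. It overlaps the Utp18 window, and 1 of its 2 matches is the same site as the match at Utp18. CCAAT was present in 38.5% of the 9979. These matches describe letters only and were not tested.

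Among the 4 higher genes, Med1 of the Mediator complex differed most. It had 90.6, 67.5 and 101 CPM in WT replicates 1, 2 and 3 and 94.7, 110.2 and 101 CPM in 5xFAD. It had 174, 168 and 128 CPM in p75NTRko and 164, 160.2 and 162 CPM in 5xFAD/p75NTRko. The 3 libraries of 5xFAD/p75NTRko were close together (SD 1.83 CPM), and p75NTRko replicate 3 was again nearest to the libraries without the label. The log2 fold changes were 0.86 (SE 0.141) and 0.67 (SE 0.140), a level higher by 81.4% and 58.8%. The second was 0.43 (SE 0.252) with Xist class as a term. Med1 lies at chr11:98152154-98193313, 2.56 Mb from Ngfr.

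Snf8 of ESCRT-II, the closest of the 9 at 0.447 Mb from Ngfr, was at 24.6 to 29.0 CPM without the label and at 30.8 to 38.2 CPM with it. Its log2 fold changes were 0.30 (SE 0.112) and 0.41 (SE 0.112). Mpp3, the MAGUK scaffold, was at 82.1 to 91.5 CPM without the label and at 95.4 to 122 CPM with it. Its differences, 0.26 (SE 0.0973) and 0.27 (SE 0.0975), were the smallest of the 9, and that with the transgenes was 0.17 without 5xFAD/p75NTRko replicate 2. That without the transgenes was 0.17 with a thalamus marker score as a covariate. In bulk tissue, fewer cells of a type and less RNA per cell cannot be told apart for any of these genes.

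**Figure D2:**
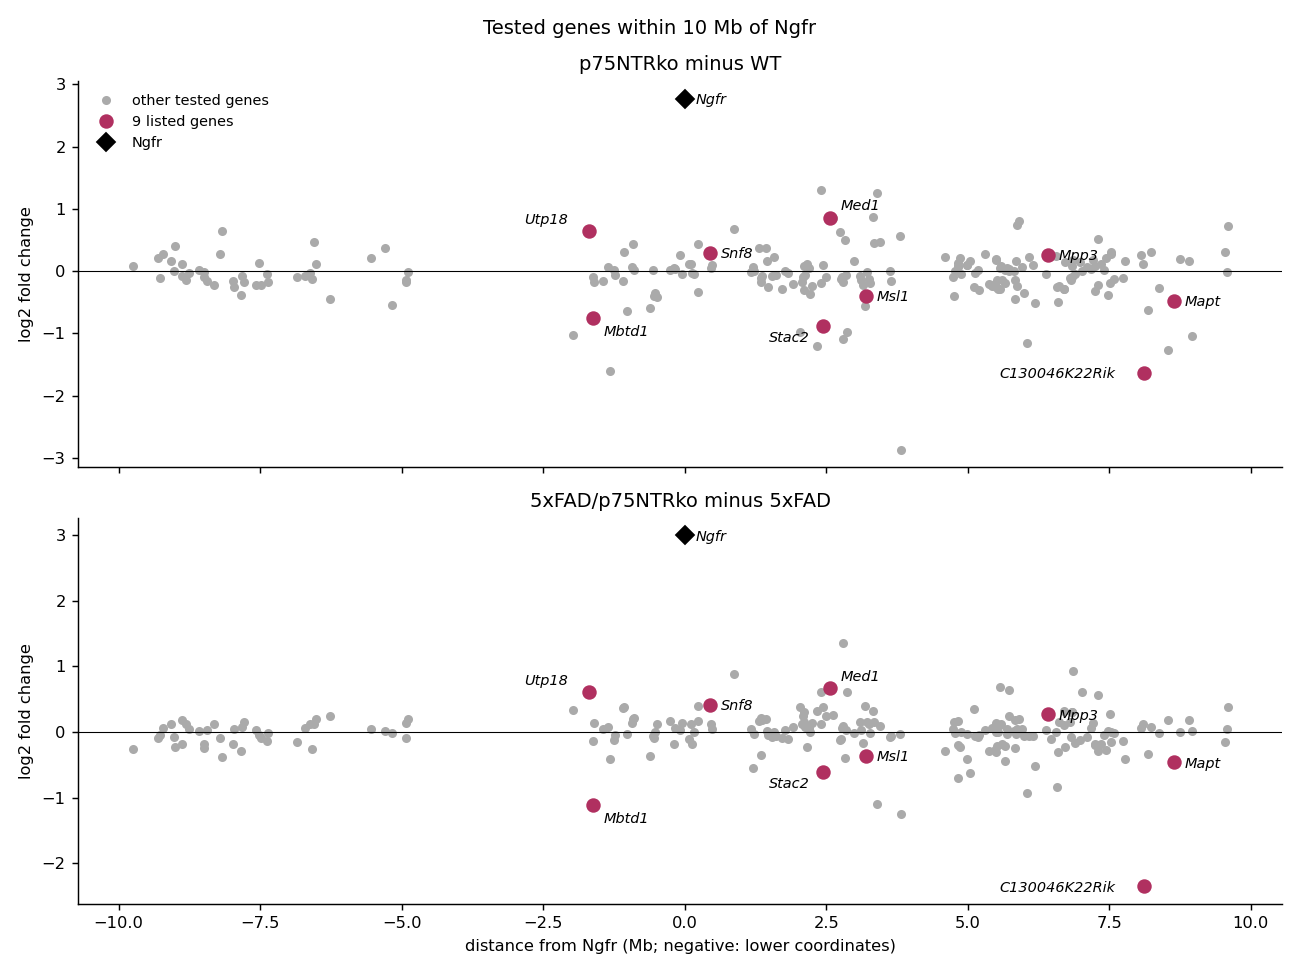
Log2 fold change by receptor label (upper panel without, lower panel with the transgenes) against distance from Ngfr in Mb, for the 9 genes (red), Ngfr (black) and the other 225 tested genes within 10 Mb (grey). The 9 genes lie on both sides of Ngfr and of 0, other genes lie between them, and C130046K22Rik is the lowest of the 9 in both panels, at -1.63 and -2.35.

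The 9 genes spanned 10.5 Mb. Mbtd1 and Utp18 lay at lower coordinates than Ngfr and the other 7 at higher ones. With distance from Ngfr, the share of tested genes that met the rule was 4 of 69 (5.80%) within 2.5 Mb, 2 of 41 (4.88%) from 2.5 to 5 Mb and 3 of 124 (2.42%) from 5 to 10 Mb. It was 1 of 201 (0.498%) from 10 to 20 Mb, 1 of 607 (0.165%) over the rest of the chromosome and 39 of 11992 (0.325%) on other chromosomes. The genes counted within 10 Mb are the 9 themselves, chosen by this rule with earlier results of these data known. These shares are therefore a description, and a gathering of such genes near Ngfr was not tested. Genes on both strands were among the 9: the 4 on the minus strand were Med1, Stac2, Utp18 and Mpp3, of which 3 were higher. Of the 5 on the plus strand 1 was higher, Snf8.

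The other 225 tested genes of the region had a median log2 fold change of -0.026 without and 0.016 with the transgenes, against -0.00063 and 0.012 over all tested genes. None of the 225 passed an adjusted p of 0.05 by edgeR in either receptor comparison or in their average (0 each, also 0 each by DESeq2). The 225 leave out every gene of the region that met the rule. Their medians, these counts and their share of like signs are therefore partly set by that choice and do not test the region. Among all tested genes, edgeR (quasi-likelihood, Benjamini-Hochberg) called 0% in p75NTRko against WT (0 genes, 1501 at an unadjusted p under 0.05, 54 by DESeq2), 0.0383% in 5xFAD/p75NTRko against 5xFAD (5 genes) and 0.0842% in the average (11 genes). Both receptor effects had the same sign in 113 of the 225 genes (50.2%) and in 46.6% of all tested genes.

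Just inside the rule stood Snf8, with the larger of its 2 unadjusted p-values at 0.0180 (edgeR). Just outside stood Thra, a thyroid hormone receptor gene, at 0.0615, Rdm1 at 0.0783 and Etv4, a transcription factor gene, at 0.0860 (edgeR). Thra was at 115 CPM ± 2.73 in WT and 98.1 ± 5.32 in p75NTRko, and at 129 ± 4.84 in 5xFAD and 115 ± 4.55 in 5xFAD/p75NTRko (SD, n = 3 each). In distance, Mapt at 8.64 Mb was the last inside, and the next genes with an unadjusted p under 0.05 in both comparisons were Tmem132e at 13.1 Mb and Cygb, a globin gene, at 21.1 Mb. Tmem132e was lower by 1.58 and 1.28 on the log2 scale (log2 fold changes -1.58, SE 0.402, and -1.28, SE 0.424), at 3.82 CPM ± 1.23 in WT and 1.23 ± 0.289 in p75NTRko (SD, n = 3 each). Mrpl27, a mitochondrial ribosomal protein gene 0.907 Mb from Ngfr, was the 1 other gene of the region whose 6 labelled libraries all exceeded the 6 others, with log2 fold changes of 0.43 (SE 0.122) and 0.20 (SE 0.123). It was chosen after its values were seen.

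Next to the 9 genes lay genes with other values. The 15 tested genes directly beside a member, taken by position after the values were seen, had a fold change under 0.3 log2 units in size in both comparisons in 8 cases (53.3%, against 63.9% of all tested genes). Fbxl20, between Stac2 and Med1, had log2 fold changes of -0.09 (SE 0.110) and 0.24 (SE 0.111), while Stac2 was lower and Med1 higher on either side of it. Kansl1, 1.41 kb beyond Mapt, had 0.19 (SE 0.132) and 0.0062 (SE 0.131). Nme2, 2.83 kb beyond Mbtd1, had -0.09 (SE 0.0940) and -0.13 (SE 0.0943). Ube2z, which abuts Snf8, had 0.058 (SE 0.0819) and 0.12 (SE 0.0822). Cdk12, 9.12 kb beyond Med1, had 0.86 (SE 0.244) without the transgenes, the value of Med1 itself, and 0.26 (SE 0.239) with them. Among the other neighbours, Crhr1, before Mapt, had -1.26 (SE 0.572) and 0.18 (SE 0.556), Car10, before Utp18, -1.02 (SE 0.349) and 0.33 (SE 0.347), and Nr1d1, before Msl1, -0.56 (SE 0.225) and 0.40 (SE 0.222). Wnt3, after C130046K22Rik, had the sign of that gene in both, with -0.63 (SE 0.470) and -0.34 (SE 0.479).

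**Figure D3:**
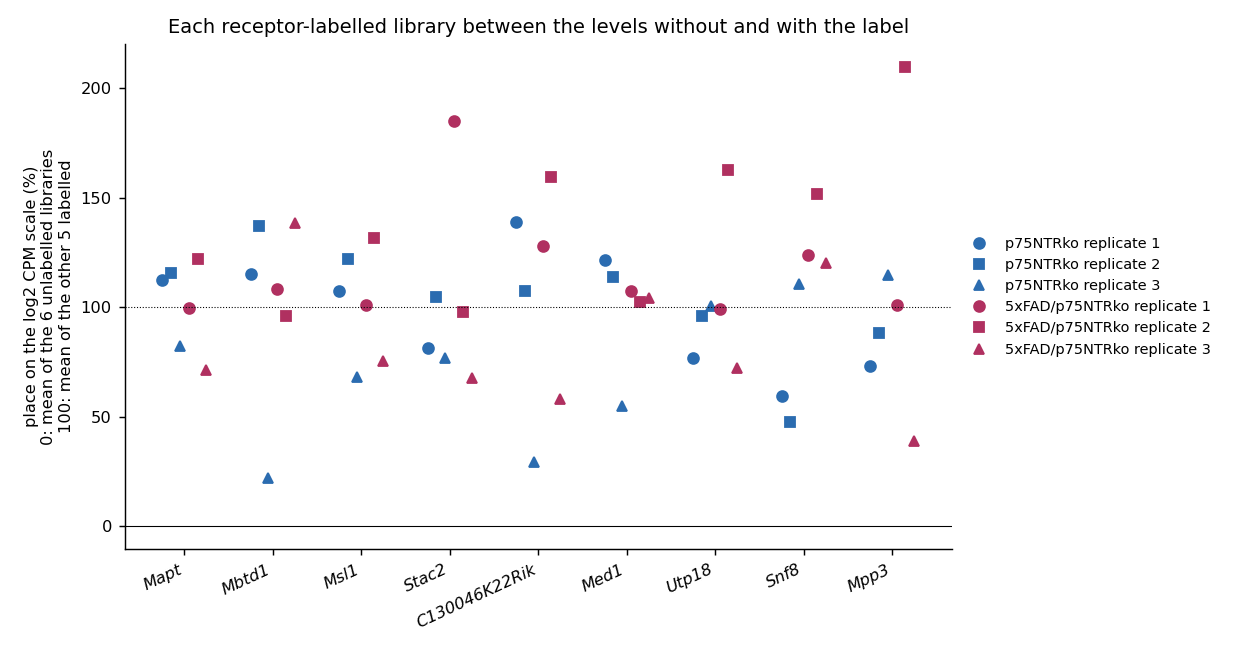
Place of each receptor-labelled library on the log2 CPM scale for the 9 genes, where 0% is the mean of the 6 libraries without the label and 100% the mean of the other 5 labelled libraries. P75NTRko replicate 3 is at 21.9% for Mbtd1 and 29.4% for C130046K22Rik. No library could reach 0%, since the labelled libraries lay fully apart from the others for each of the 9 genes.

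The labelled libraries did not take up the same place for every gene. On a scale where 0% is the mean of the 6 libraries without the label and 100% that of the other 5 labelled libraries (log2 CPM), p75NTRko replicate 3 was at 21.9% for Mbtd1, 29.4% for C130046K22Rik and 55.1% for Med1, but at 110% for Snf8 and 115% for Mpp3. 5xFAD/p75NTRko replicate 3 was at 39.0% for Mpp3 and 58.2% for C130046K22Rik, and at 139% for Mbtd1. Each of these 2 libraries was the one nearest to the unlabelled level for 4 of the 9 genes, and p75NTRko replicate 2 for 1, Snf8. The median place over the 9 genes was 77.1% and 72.4% for these 2 libraries and 107% to 132% for the other 4. These libraries were singled out after their values were seen. The spread within genotypes entered the p-values by which the 9 were chosen and is given as a description only. The biological coefficient of variation ran from 8.34% for Snf8, 8.70% for Msl1, 8.79% for Mpp3 and 9.31% for Mapt to 34.7% for C130046K22Rik, and its median over all tested genes was 13.2%.

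The effect of the transgenes, averaged over both receptor labels, is orthogonal to the contrasts that chose the genes and could be tested. None of the 9 passed: adjusted p-values were 0.518 to 0.952 by edgeR and 0.611 to 0.977 by DESeq2, and 0 of 9 had an unadjusted p under 0.05, against 10.3% of all genes. Over all genes 0.0153% passed (2 genes), and 0.582% had carriers and non-carriers fully apart. The 9 could not show the latter. Their receptor-labelled libraries all lie on one side of the others, and carriers and non-carriers each include both kinds. The median size of the transgene difference over the 9 was 0.12 log2 units, close to 0.11 over all genes. The same medians for the receptor label were 0.63 and 0.10, the former fixed by the choice of genes.

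For Mapt the transgene effect was 0.017 log2 units with a 95% interval of -0.12 to 0.15 (adjusted p 0.952, edgeR). Its bounds correspond to a change of at most 11.2% in the average over both receptor labels. The width of such intervals rests on the spread that entered the choice of the 9, so they may be too narrow. For Msl1 it was -0.030 (-0.16 to 0.10, adjusted p 0.896, edgeR) and for Mpp3 0.039 (-0.11 to 0.19, adjusted p 0.876, edgeR). Med1, Utp18 and Snf8 were at 0.15 (-0.067 to 0.36), 0.13 (-0.15 to 0.40) and 0.11 (-0.056 to 0.28). Stac2 had the smallest p of the 9, with -0.27 (-0.57 to 0.021, adjusted p 0.518, edgeR). The intervals of Mbtd1 (-0.12, from -0.41 to 0.17) and C130046K22Rik (-0.29, from -1.12 to 0.54) were wide, and both estimates changed sign without p75NTRko replicate 3, to 0.077 and 0.29. The transgene differences on each receptor background share libraries with the contrasts of the rule and are given as values only: in Med1 they were 0.24 without and 0.049 with the receptor label, in Stac2 -0.41 and -0.14, and in Mapt 0.0098 and 0.024.

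**Figure D4:**
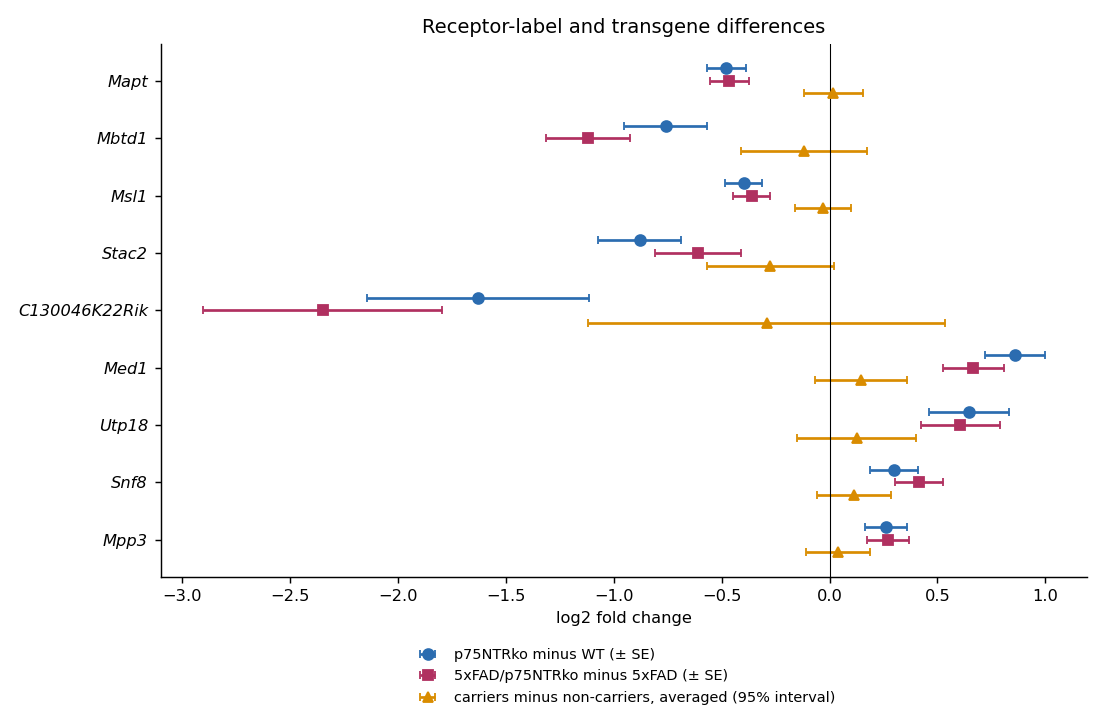
Log2 fold changes of the 9 genes by receptor label without (circles) and with (squares) the transgenes, with SE, and by transgenes averaged over receptor labels (triangles), with 95% intervals. All 9 transgene intervals include 0, and those of Mapt, from -0.12 to 0.15, and Msl1, from -0.16 to 0.10, are the narrowest.

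The complexes and families to which the genes belong were described from lists that leave the 9 genes out. Of 176 partner genes tested in 9 lists, 0 passed by edgeR in p75NTRko against WT, in 5xFAD/p75NTRko against 5xFAD, in their average and in the transgene effect. An unadjusted p under 0.05 was seen for 17 of the 176 in the first (11.5% of all genes), for 7 in the second (5.08%), for 10 in the average (6.3%) and for 20 in the transgene effect (10.3%). DESeq2, which tested 168 to 184 of the partner genes, called 1 in the first (Cacna2d2, against 0.327% of all genes it tested) and 0 in the second (0.125%). It called 2 in the average (Cacna2d2 and Mpp6, against 0.291%) and 4 in the transgene effect (Cacna2d1, Map7d2, Med13l and Ppp2r2b, against 0.678%).

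For the average over both receptor comparisons, the median log2 fold change over all tested genes was 0.0026. The other 32 Mediator genes had a median of 0.012, with 18 above and 14 below 0. Their smallest p belonged to Cdk19, a Mediator kinase, at -0.33 (SE 0.0829, adjusted p 0.326, edgeR). Of these, 2 genes, Med13 and Med24, lie within 10 Mb of Ngfr as Med1 does, and had 0.16 (SE 0.151) and -0.056 (SE 0.0878), beside 0.76 (SE 0.0994) for Med1. The 11 MSL and NSL genes had a median of 0.050, and Msl3 the smallest p, at -0.15 (SE 0.0792, adjusted p 0.775, edgeR). Kansl1, the neighbour of Mapt, was at 0.10 (SE 0.0930). The 16 TIP60 genes had a median of -0.038, with Vps72 at -0.21 (SE 0.0976, adjusted p 0.775, edgeR).

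The 24 other genes of the small subunit processome had a median of 0.031, with Imp4 at -0.35 (SE 0.167, adjusted p 0.775, edgeR). The 28 ESCRT genes were split evenly around a median of -0.00014, and Vps25, which joins Snf8 in ESCRT-II and also lies within 10 Mb of Ngfr, was at -0.095 (SE 0.107). Mvb12a of ESCRT-I had the smallest p in that list, at 0.27 (SE 0.147, adjusted p 0.783, edgeR). The 18 other microtubule-associated proteins had a median of -0.043, led by Map1a, a dendritic microtubule protein, at -0.19 (SE 0.0676, adjusted p 0.684, edgeR). The 20 tau kinase and phosphatase genes had a median of -0.038, with Gsk3b at -0.11 (SE 0.0569, adjusted p 0.775, edgeR).

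Members of the last 2 lists came closest to the threshold. Of the 10 STAC and L-type channel genes tested besides Stac2 (median -0.023), Cacna2d2, an auxiliary subunit that raises channel surface expression, had -0.76 and -0.32 in the 2 receptor comparisons and -0.54 (SE 0.0979, adjusted p 0.0714, edgeR) in their average. It was at 49.98 CPM ± 8.31 in WT and 29.4 ± 1.002 in p75NTRko, and at 46.9 ± 0.950 in 5xFAD and 37.6 ± 5.94 in 5xFAD/p75NTRko (SD, n = 3 each). Cacnb1, within 10 Mb of Ngfr, was at -0.034 (SE 0.0911). Of the 17 MAGUK genes (median 0.012), Mpp6, a relative of Mpp3 on another chromosome, had the opposite sign from Mpp3, with -0.46 (SE 0.0980, adjusted p 0.176, edgeR). Mpp2, beside Mpp3, was at 0.065 (SE 0.0960).

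Over the 12 libraries, the genes outside the 9 whose log2 CPM was most like Mapt were Shisa8 (Pearson r 0.91), Atp6v0a2 (0.88) and Ctsk (0.85). Those most like Med1 were Abt1 (0.92), Arl5c (0.91) and Exosc3 (0.87). Arl5c lies 2.40 Mb from Ngfr, and the other 5 are on other chromosomes. For the remaining genes the first was Tmem132e for Msl1 (0.92), Snapc1 for Stac2 (0.88), Mfhas1 for Mbtd1 (0.87), Rbbp7 for Utp18 (0.93), Ngfr for Snf8 (0.91), Fam76b for Mpp3 (0.91) and Shisa8 for C130046K22Rik (0.90). Within the 9, Mapt was most like C130046K22Rik (0.94) and Med1 most like Utp18 (0.89). These values describe 12 libraries that share the receptor grouping by which the 9 were chosen.

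Markers of other tissue differed in some comparisons, but in none of the 9 tissue lists were the summed levels of all 6 receptor-labelled libraries apart from the 6 others. Between p75NTRko and WT, the 13 thalamus and habenula markers summed to 331 to 374 CPM against 514 to 736 CPM, the 11 striatal markers (Drd2 and Gpr6 at 0 in every library) to 140 to 161 against 185 to 247 CPM, and the 10 hippocampal neuron markers to 1218 to 1324 against 782 to 1125 CPM. Between 5xFAD/p75NTRko and 5xFAD, the 12 oligodendrocyte markers summed to 4191 to 5440 CPM against 5489 to 7874 CPM. Their part in the differences of the 9 genes was not tested. With the thalamus score as a covariate, p75NTRko against WT gave -1.14 for Stac2 and 0.17 for Mpp3 on the log2 scale, in place of -0.88 and 0.26, and no other list was used as a covariate. In the libraries of the high Xist class alone, 5xFAD/p75NTRko against WT gave -0.46 (SE 0.121) for Mapt, 0.90 (SE 0.148) for Med1 and -1.06 (SE 0.123) for Mbtd1 on the log2 scale. The rest were -0.41 for Msl1, -1.02 for Stac2, -2.29 for C130046K22Rik, 0.75 for Utp18, 0.47 for Snf8 and 0.30 for Mpp3. This contrast joins the transgenes and the receptor label. Its libraries were used in choosing the 9 and were already fully apart, so the directions were set beforehand and test nothing.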

How the data were processed

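RNA was extracted with Trizol, samples with an integrity number above 7 were made into QuantSeq 3′ libraries with 14 amplification cycles, and sequencing used an Illumina instrument, per the labels' protocols. The authors deposited raw counts of reads per gene symbol, with no normalization recorded. The submitters' processing notes name FastQC, HISAT2, SAMtools, HTSeq and edgeR and the build mm10 (GRCm38), without roles. The annotation and the strand setting are not given in the sources used here. The table's 5 summary lines entered neither library sizes nor tests. Genes took 32.2% to 38.5% of each library's reads, and 9.58% to 12.1% stood under the line for non-unique alignment.

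The model was edgeR 4.0.16's quasi-likelihood fit in R 4.3.3 (filterByExpr by genotype, TMM factors of 0.975 to 1.03, 1 mean for each genotype, 12 libraries) and Benjamini-Hochberg adjustment over 13065 genes at a threshold of 0.05. For log2 CPM the prior count was 2. Each SE follows from a log2 fold change and its F value, and intervals are 95%. Libraries of a genotype all differed by more than counting noise (lowest chi-square per degree of freedom 3.09). Positions came from RefSeq (GRCm38.p6, 99.8% of tested genes matched), overlaps from GENCODE M21 on the same build, and start-site windows from RefSeq. The procedure was tested on simulated data.

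The 9 genes, the partner and marker lists and the comparisons were chosen with earlier results of these data known, and both receptor contrasts were used in choosing the 9, so those contrasts carry no test for them. Partner genes were named when past the threshold, otherwise by the smallest p per list in the receptor average, and those within 10 Mb of Ngfr by position. The genes just outside the rule and the most similar genes were named by rank. Alternatives were DESeq2 1.42.0, RLE size factors, other filters on low counts, the replicate number as a block, Xist class or a thalamus score as a term, genes on X and Y left out, only the compared genotypes, and each library left out. Leaving out replicate 3 of both receptor-labelled genotypes and the fit within the high Xist class were added after the data were seen.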

Additional observations from a re-analysis of the deposited data

How the results depend on the processing

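The direction of the receptor-label difference was the same under every alternative run for each of the 9 genes and Ngfr. For each of these genes the labelled libraries were fully apart from the others, so leaving out a library could hardly reverse a direction. The 9 were also chosen by these contrasts, so the stable direction is a description and not a test. With Xist class as a term, some sizes moved by more than the spread between replicates. In p75NTRko against WT these were Mbtd1, to -1.07 (SE 0.281), and C130046K22Rik, to -3.15 (SE 0.897). In 5xFAD/p75NTRko against 5xFAD they were Med1, to 0.43 (SE 0.252), Mbtd1, to -0.67 (SE 0.338), and C130046K22Rik, to -0.43 (SE 1.32). In that fit the class effect rests on the 3 p75NTRko libraries. With the thalamus score, Stac2 and Mpp3 were at -1.14 and 0.17 in p75NTRko against WT.

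Counts of genes called over the table depended on the fit. They are given in the order p75NTRko against WT, 5xFAD/p75NTRko against 5xFAD, the receptor average and the transgene average, which were 0, 5, 11 and 2 by edgeR. DESeq2 gave 54, 22, 39 and 72, and no filter on low counts 46, 14, 21 and 17. A mean of at least 50 counts gave 1 in the second and 7 in the third. Xist class as a term gave 1, 0 and 3 in the first 3, and the thalamus score gave 33 in the first, 2 in the third and 8 in the fourth. Without genes on X and Y the second was 1, and with only the compared genotypes the first 2 were 21 and 9. Without replicate 3 of p75NTRko and of 5xFAD/p75NTRko together the counts were 3, 1, 5 and 4, and Mbtd1 in the transgene average was 0.12 in place of -0.12 (this setting was chosen after seeing the data). Leaving out each library in turn gave 0 to 26, 0 to 7, 1 to 14 and 2 to 58. The cause of these shifts was not tested. RLE size factors left all 4 counts as they were.

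Leaving out single libraries moved the transgene average across 0 for Mapt (-0.016 to 0.048), Mbtd1 (-0.21 to 0.077), C130046K22Rik (-0.75 to 0.29) and Mpp3 (-0.0091 to 0.080), none of which was called. With the replicate block the second count was 0 and the third 4. The labels give every genotype replicates 1 to 3, but of 18 same-numbered pairs 2 had a correlation of deviations above 0.1 (range -0.42 to 0.14) and 2 of 12 libraries correlated best with their own number, so the numbers do not pair the libraries. C130046K22Rik and Ngfr, with libraries at or near 3 counts, are the genes whose values the depth limits most.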
